A study of Mus musculus with 24 samples.

Results

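The 8 hippocampal libraries whose titles named the labelled Neil1-KO genotype were compared by side of the brain, out of 24 libraries in the whole series. Of these, 4 came from the ipsilateral and 4 from the contralateral hippocampus, with 2 animals at 3 h and 2 at 6 h, and they were chosen by label and not by any measured value. The animals were mice that underwent hypoxia-ischemia on postnatal day 10, and every library, contralateral ones included, came from an animal with this treatment and this genotype label. The other groups used for comparison were 8 libraries from WT (wild-type) and 8 from Neil2-KO mice, with the same sides, times and number of animals. The libraries titled NEIL2-KO carried NEIL1-KO as their genotype tag and were grouped by title. The labels name neither the alleles behind the knockouts nor the strain or the surgery. The titles give 3 h and 6 h without saying from which moment they were counted. The design text has both sides taken from the same 2 replicates of each genotype and time, so both libraries with the same time and replicate number are called 1 animal.

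Hypoxia-ischemia in rodent pups is a model of birth asphyxia. In its usual form one carotid artery is closed and the pup then breathes air low in oxygen, so that the ipsilateral hemisphere is deprived of blood and oxygen while the contralateral one meets low oxygen alone. The hippocampus is among the regions most easily injured. Cells that survive the first minutes are known to switch on immediate early transcription factors, heat shock chaperones and inflammatory signals, whereas excitatory synapses, which release glutamate to excess, are a main site of damage. Neil1 and Neil2 are DNA glycosylases, enzymes of base excision repair that cut oxidized bases out of DNA.

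The levels below are normalized counts, that is, read counts divided by a size factor of the library. Where 4 values are given for a side, they stand in the order 3 h replicate 1, 3 h replicate 2, 6 h replicate 1 and 6 h replicate 2. Where the sides are joined by "against", the contralateral values come first. A value after ± is a standard error of the log2 fold change unless it is called an SD. Each library held 18098982 to 28750931 reads. Neil1 was read at 91.6, 104, 117 and 126 contralaterally and at 153, 146, 115 and 155 ipsilaterally. It was therefore present in all 8 libraries labelled Neil1-KO, and the sides overlapped (log2 fold change 0.37 ± 0.16 SE, limma adjusted p = 0.097). Neil2 was read at 27.3, 21.8, 16.9 and 24.4 contralaterally and at 26.9, 23.5, 16.6 and 28.7 ipsilaterally, without a difference past the threshold (0.07 ± 0.25, limma adjusted p = 0.846). Reads from a part of Neil1 that was not removed would look the same, so the label is used here as a name and was not checked by this gene. Xist, the RNA that silences one X chromosome in females, was 10350 to 18160 in both libraries of replicate 2 at each time and 7.94 to 14.47 in those of replicate 1.

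One library stood apart. On the first principal component, which held 62.1% of the variance, the contralateral libraries lay between -48.15 and -30.27 and the ipsilateral ones at 33.04, 12.45, 40.28 and 77.32. The last of these, ipsilateral 6 h replicate 2, was also the least correlated with its own side (mean r = 0.966 over log2 values) and had the highest share of reads on lines without a gene name (12.48%). The median SD between the 2 animals of a group was 0.174 (3 h) and 0.22 (6 h) on the log2 scale ipsilaterally and 0.0951 and 0.0768 contralaterally. Ttr, which marks choroid plexus tissue, was read at 29290, 263.2, 193.5 and 153.7 contralaterally and at 3858, 73.96, 11310 and 19800 ipsilaterally. It was higher ipsilaterally in both animals at 6 h and lower ipsilaterally in both at 3 h. Counts are given below with and without the outlying library where they rest on it.

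Of 17311 genes tested, 6033 (34.9%) differed between the sides at an adjusted p under 0.05 in a limma fit with time as a block. They comprised 2723 genes higher ipsilaterally (15.7%) and 3310 lower (19.1%). The median log2 fold change over all genes was 0.01, a value that the size factors hold near 0, so changes are relative to the bulk of genes and a shift of all of them together could not be seen. The increases reached further than the decreases: 861 genes (4.97%) were at least 2-fold higher and 191 of the increases passed 4-fold, whereas 496 (2.87%) were at least 2-fold lower and 12 of the decreases passed 4-fold. The difference had the called direction in all 4 animals for 5931 of the 6033 genes (98.3%), and the sides did not overlap at all for 5273 of them. Over all genes tested, 2615 (15.1%) had every ipsilateral value above every contralateral one and 3580 (20.7%) had every one below. Without the outlying library 5664 genes were called, of which 5327 had been called with it.

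The named increases were taken from called genes with a mean of at least 50, no overlap between the sides and no predicted-gene name. The 10 largest of these were 5 chemokine genes (Ccl4, Ccl3, Cxcl10, Ccl2 and Ccl7), the stress-induced cytokine Gdf15, the transcription factor Atf3 and 3 heat shock genes. The 5 chemokine genes and Gdf15 had no contralateral value of 10 or more. They passed the filter on low values through the ipsilateral libraries alone, so they had to be higher ipsilaterally. Ccl4, a chemokine that draws monocytes, was read at 3.22, 1.09, 0 and 2.44 contralaterally and at 387, 215, 844 and 486 ipsilaterally. It was nearly silent on the contralateral side, where all 4 libraries together held 7 reads against 2127 ipsilaterally, so its fitted log2 fold change of 7.52 ± 0.52 depends on the pseudocount of 1 (limma adjusted p = 5.44e-05). Atf3, a leucine zipper factor induced by many kinds of stress, was read at 28.9, 13.1, 21.8 and 31.7 contralaterally and at 3784, 3211, 3124 and 3461 ipsilaterally. All 4 ipsilateral values lay within a narrow range and far above the other side, a log2 fold change of 7.16 ± 0.24 (limma adjusted p = 2.20e-06, the smallest of all genes). Gdf15 was read at 1.61, 1.09, 0.993 and 1.22 contralaterally and at 231, 94.1, 190 and 156 ipsilaterally (5 against 736 reads in all).

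**Figure D1:**
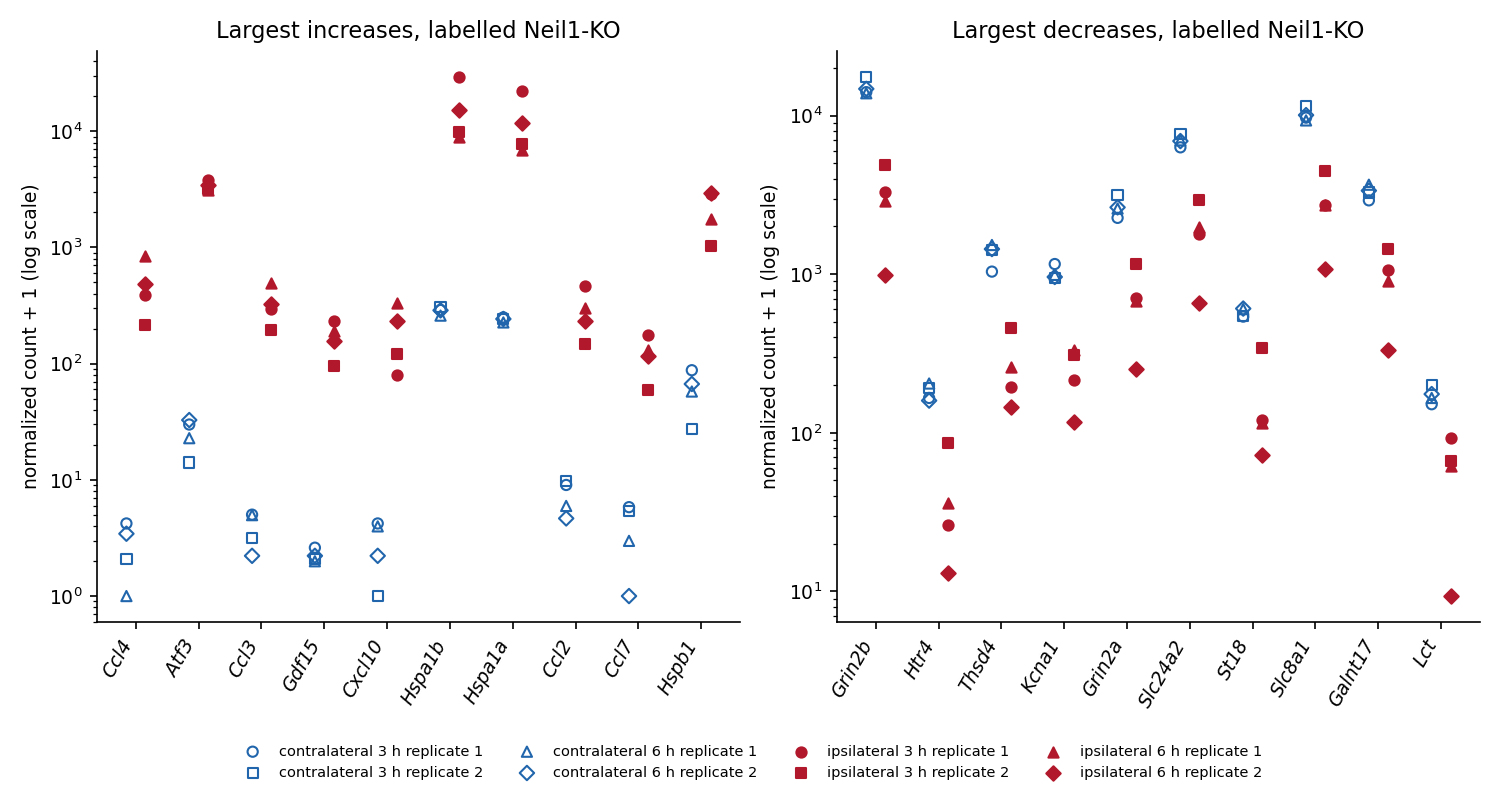
Normalized count plus 1 (vertical log axis) of the 10 genes with the largest increase (left) and the 10 with the largest decrease (right) in each of the 8 labelled Neil1-KO libraries; open blue symbols are contralateral, filled red ones ipsilateral, and the symbol shape gives the animal. The rule that chose the 20 left out genes with a mean under 50, overlapping sides or the name of a predicted gene. Ipsilateral 6 h replicate 2 is the lowest value of each gene on the right.

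Chemokine and cytokine genes were mostly near silent contralaterally. All 16 tested members of a list of 18 chemokines and cytokines were called higher, with a median log2 fold change of 4.53 (2 members, Cxcl2 and Il6, did not pass the filter on low values). Of the 16, 14 had no contralateral value of 10 or more and passed the filter through the ipsilateral libraries alone, so these had to be higher ipsilaterally and the count is no more than a description. Csf1, the growth factor of microglia and macrophages, was expressed on both sides, at 289, 276, 301 and 349 contralaterally and 1286, 1311, 1954 and 1547 ipsilaterally. It rose in all 4 animals by a log2 fold change of 2.31 ± 0.11 (limma adjusted p = 5.80e-06). Tgfb1 rose by 1.41 ± 0.14. The interleukins Il1a and Il1b stood at 5.37 ± 2.72 and 2.25 ± 2.62 contralaterally and at 171 ± 110.3 and 81.6 ± 89.0 ipsilaterally (mean ± SD, n = 4), so that the ipsilateral spread of Il1b exceeded its mean. The members below the filter followed the same order: Cxcl2 was read at 0, 0, 0 and 1.22 contralaterally and at 30.41, 5.603, 18.39 and 31.48 ipsilaterally, and Il6 at 0.8038, 0, 0.9926 and 1.22 against 8.688, 7.845, 29.77 and 25.92.

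NF-kB is the transcription factor family that drives many of these genes, and most of its subunits and feedback inhibitors rose as well: 13 of 15 were called higher and none lower (median log2 fold change 1.20). Over all genes 15.7% were called higher and 19.1% lower. None of the 15 depended on the ipsilateral side to pass the filter. Zfp36, an RNA-binding protein that hastens the decay of cytokine mRNAs, was read at 86.8, 67.7, 66.5 and 64.6 contralaterally and at 1758, 1526, 1001 and 1507 ipsilaterally. Nfkbiz, an atypical IkB protein, was read at 114, 115, 113 and 122 against 691, 847, 784 and 805, and Socs3, an inhibitor of cytokine receptor signalling, at 95.7, 64.4, 57.6 and 64.6 against 1600.3, 1347, 864 and 1188. These 3 genes had little spread within a side, and their log2 fold changes of 4.30 ± 0.15, 2.74 ± 0.10 and 4.12 ± 0.16 came right after Atf3 in the order of moderated t. The subunits themselves moved less. Rela was read at 476, 449, 515 and 478 contralaterally and at 782, 809, 1016 and 1007 ipsilaterally (log2 fold change 0.90 ± 0.09, limma adjusted p = 0.000314). Nfkb2 rose by 1.84, Rel by 1.20 and Relb by 0.68, while Nfkbib (-0.11) and Nfkbie (0.43) were not called. The same 13 genes of this list were called higher in each of the 8 fits that left out 1 library.

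Immediate early genes, whose transcription needs no new protein, mostly rose: 20 of 25 were called higher and 1 lower (median log2 fold change 2.37). The shares over all genes were 15.7% and 19.1%. Of the 20, 1 passed the filter on low values through the ipsilateral libraries alone and had to be higher. Fos was read at 1068, 310.1, 163 and 156 contralaterally and at 19195, 14204, 4531 and 9018 ipsilaterally. It varied on the contralateral side, where 3 h replicate 1 held the highest value, and still did not overlap between the sides (log2 fold change 5.08 ± 0.36, limma adjusted p = 6.15e-05). Egr2 was read at 94.9, 85.2, 57.6 and 53.7 against 628, 594, 291 and 282, Junb at 597, 431, 384 and 331 against 3377, 3363, 1609 and 1452, and Ier3 at 53.1, 42.6, 38.7 and 29.3 against 529, 435, 495 and 857. For Egr2 and Junb both libraries at 3 h exceeded both at 6 h on either side, and Ier3 was highest in the outlying library. Npas4, a factor of neurons that responds to calcium entry, rose by 4.03 ± 0.30 (limma adjusted p = 8.19e-05), and Arc, which acts at dendrites, by 2.56 ± 0.29. Not every activity-dependent gene followed: Egr3 fell by 1.23 ± 0.21 on the log2 scale (limma adjusted p = 0.00323), and Nr4a2 (0.04), Nr4a3 (-0.57), Egr4 (-0.61) and Fosl2 (-0.24) were not called. Among 14 dual-specificity phosphatases and Sprouty-type inhibitors, which switch off MAP kinase signalling, 9 rose and 1, Spred2 (-0.61 ± 0.13), fell. This stands beside 15.7% and 19.1% of all genes. Dusp16 was read at 174, 181, 184 and 202 contralaterally and at 814, 834, 568 and 895 ipsilaterally (2.05 ± 0.15, limma adjusted p = 7.07e-05). Spry1 (1.42 ± 0.12), Dusp10 (2.09 ± 0.22) and Dusp5 (1.75 ± 0.20) also rose without overlap.

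Heat shock genes encode chaperones that refold damaged proteins, and are switched on by the factor Hsf1 through inverted repeats such as GAANNTTC (N is any base). Of the 10 genes with the largest increase 7 had a promoter entry, and the windows of 250 bases before the start of 3 heat shock genes among them are shown because this motif, in capitals, is in each. They come from RefSeq on GRCm38.p6, a build older than the GRCm39 named in the submitters' processing notes, and lie at chr17:34959239-34959488, minus strand (Hspa1b), chr17:34972157-34972406, minus strand (Hspa1a) and chr5:135887669-135887918, plus strand (Hspb1), written 5′ to 3′ on the strand of the gene.
Hspa1b: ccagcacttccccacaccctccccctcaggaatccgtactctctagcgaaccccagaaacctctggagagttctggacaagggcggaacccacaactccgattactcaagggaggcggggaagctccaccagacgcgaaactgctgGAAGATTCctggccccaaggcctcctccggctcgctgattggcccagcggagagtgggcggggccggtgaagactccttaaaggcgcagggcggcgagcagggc
Hspa1a: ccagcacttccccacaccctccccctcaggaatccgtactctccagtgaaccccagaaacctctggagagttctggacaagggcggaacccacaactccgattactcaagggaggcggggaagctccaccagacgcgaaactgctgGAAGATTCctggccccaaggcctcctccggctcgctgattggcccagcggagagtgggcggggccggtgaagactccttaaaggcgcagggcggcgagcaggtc
Hspb1: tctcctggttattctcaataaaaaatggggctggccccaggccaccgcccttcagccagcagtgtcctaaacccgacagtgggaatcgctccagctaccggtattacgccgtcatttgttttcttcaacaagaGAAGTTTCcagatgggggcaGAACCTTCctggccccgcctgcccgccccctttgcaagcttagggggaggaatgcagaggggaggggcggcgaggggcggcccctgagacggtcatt
Counted back from the start of the gene, the motif began at position -104 in Hspa1b and Hspa1a and at -117 and -97 in Hspb1. It was found in 6.69% of 32851 promoter windows of this length, so it is not rare, and a match of letters is a description and not a binding site. The Hspa1b and Hspa1a windows differed at 3 of 250 positions. The motifs TTCNNGAA (7.17% of windows), TGANTCA (6.75%), TGACGTCA (1.55%) and ACGTG (16.6%) and an NF-kB consensus (0.14%), searched on both strands, were not found in these 3 windows, and the window of Atf3 held none of these motifs. Among the other windows not shown, Cxcl10 held 1 TGANTCA, and entry 2 of Gdf15 held 1 TTCNNGAA and 2 ACGTG. The Ccl3 window and entry 1 of Gdf15 held no motif searched.

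Both Hspa1 genes encode the inducible HSP70, and their transcripts are near-identical copies among which the counting may have split reads. Hspa1b was read at 289, 308, 258 and 287 contralaterally and at 29469, 9765, 8841 and 15267 ipsilaterally, and Hspa1a at 249, 242, 225 and 241 against 22321, 7697, 6906 and 11675. The contralateral values were alike in all 4 libraries, and the ipsilateral ones were highest in 3 h replicate 1. The log2 fold changes were 5.62 ± 0.31 and 5.50 ± 0.30 (limma adjusted p = 1.17e-05 and 1.17e-05). Hspb1, a small heat shock protein that is also made by reactive astrocytes, was read at 86.8, 26.2, 56.6 and 65.9 against 2911, 1019.8, 1764 and 2953 (5.17 ± 0.40, limma adjusted p = 9.99e-05). Of 17 chaperones and co-chaperones, 14 rose and none fell (median 1.04), beside 15.7% and 19.1% of all genes. The same 14 were called in each fit without 1 library. Bag3, the co-chaperone that directs clients to autophagy, was read at 185, 132, 164 and 194 contralaterally and 1103, 651, 856 and 1199.8 ipsilaterally (2.47 ± 0.19). The constitutive Hspa8 rose by only 0.54 ± 0.11, and Hsp90ab1 (0.02), Dnaja1 (0.16) and Dnajb5 (-0.34) were not called.

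The integrated stress response and the unfolded protein response slow translation and enlarge the folding capacity of the endoplasmic reticulum. Of 20 genes of these responses, 17 rose and none fell (median 0.67), beside 15.7% and 19.1% of all genes. Ppp1r15a (GADD34), which restores translation, was read at 617, 511, 523 and 450 contralaterally and at 2550, 2358, 2373 and 2188 ipsilaterally. The sides were far apart with little spread in either (2.18 ± 0.10, limma adjusted p = 4.29e-06). Ddit3 (CHOP) was read at 173, 157, 164 and 172 against 411, 504, 488 and 445 (1.46 ± 0.11), and Hspa5, the main chaperone of the endoplasmic reticulum, at 6112, 4669, 4579 and 4116 against 13748, 12594, 14839 and 14381 (1.53 ± 0.13). Atf4 rose by 1.08 ± 0.10, and Asns (-0.34), Sesn2 (0.64) and Atf5 (0.32) were not called. Of 20 genes related to p53 and cell death, 12 rose and 2 fell (median 0.90), beside 15.7% and 19.1% of all genes. The members that rose included stress-induced genes such as Gadd45g, read at 447, 312, 298 and 306 contralaterally and 2213, 2412, 2075 and 2243 ipsilaterally (2.73 ± 0.12, limma adjusted p = 4.29e-06), Phlda1 (1.89 ± 0.10), Tnfrsf12a (3.05 ± 0.18) and Gadd45b (2.95 ± 0.22). The p53 targets were split. Cdkn1a rose by 0.65 ± 0.12, and Fas, Gadd45a and Plk3 were called higher too, whereas Mdm2 (0.22), Bax (0.22), Ccng1 (0.03) and Sesn1 (0.22) were not called. The killers Pmaip1 (2.69 ± 0.28), also a p53 target, and Bcl2l11 (1.44 ± 0.14) and the protector Mcl1 (1.10 ± 0.09) rose. The killer Hrk (-0.86 ± 0.17) and the protector Bcl2l1 (-0.35 ± 0.09) fell.

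Genes of low oxygen and of glycolysis were called in both directions. Of 23, 6 rose and 5 fell, beside 15.7% and 19.1% of all genes, with a median of -0.06 against 0.01 for all genes. The ipsilaterally higher ones were Adm (2.78 ± 0.46), the glucose transporter Slc2a1 (1.67 ± 0.24), the oxygen sensor Egln3 (1.13 ± 0.15), Vegfa (0.70 ± 0.12), P4ha1 (0.66 ± 0.11) and Pfkfb3 (0.60 ± 0.18). Slc2a1 was read at 1783, 1177, 1286 and 1527 contralaterally and at 4104, 3947, 3428 and 7569 ipsilaterally, the last value, of the outlying library, being the highest. Slc2a1 is also the glucose transporter of brain endothelium, and the summed level of 15 endothelial and mural markers was highest in the same library, at 13999, 11113, 10909 and 12535 against 19198, 14092, 16396 and 30360; their part in this gene was not tested. Hk1 (-0.72 ± 0.17), Pdk1 (-0.43 ± 0.09), Pfkl (-0.41 ± 0.13), Bnip3 (-0.37 ± 0.08) and Egln1 (-0.31 ± 0.08) fell. Pgk1 (-0.18), Ldha (-0.23), Aldoa (-0.22), Gapdh (0.04) and Car9 (0.90) were not called. Among 20 targets of NRF2, antioxidant enzymes and metallothioneins, 7 rose and 2 fell (median 0.25), beside 15.7% and 19.1% of all genes. Hmox1, which breaks down heme, was read at 135, 120.1, 242 and 140.2 against 1184, 875, 1424 and 1673 (3.02 ± 0.18, limma adjusted p = 1.59e-05). Most other members changed by less: Mt1 rose by 0.47 ± 0.08 and Mt2 by 0.65 ± 0.12, Sod2 (-0.48 ± 0.11) and the cystine transporter Slc7a11 (-0.32 ± 0.09) fell, and Nqo1 (0.59), Gclm (0.12), Gclc (-0.10) and Txnrd1 (0.16) were not called. Osgin1 (2.80 ± 0.28) passed the filter through the ipsilateral side alone.

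Receptors and targets of glucocorticoids did not move as 1 group, with 5 of 12 higher and 4 lower, beside 15.7% and 19.1% of all genes. Per1, also a clock gene, was read at 1398, 972, 1032 and 1145 contralaterally and 2637, 3260, 2464 and 2582 ipsilaterally (1.27 ± 0.13, limma adjusted p = 0.000321). Errfi1 (1.16 ± 0.12) and Pdk4 (1.77 ± 0.26) rose, whereas Fkbp5, a classical target, was read at 1296, 1242, 1385 and 1407 against 616, 805, 826 and 822 and fell by 0.80 ± 0.10 on the log2 scale (limma adjusted p = 0.000788). The mineralocorticoid receptor Nr3c2 fell by 1.70 ± 0.30 and the glucocorticoid receptor Nr3c1 (0.10) was not called. Of 17 clock genes 9 rose and 2 fell (median 0.42), beside 15.7% and 19.1% of all genes. Bhlhe41 (1.65 ± 0.17), Bhlhe40 (1.42 ± 0.16) and Nr1d1 (1.14 ± 0.12), which repress the clock, rose, the activator Clock fell (-0.36 ± 0.12), and Per2 (0.28) and Cry2 (-0.24) were not called. In cholesterol metabolism 4 of 18 genes rose and none fell, beside 15.7% and 19.1% of all genes. The 4 were Insig1 (1.20 ± 0.17), Idi1 (1.05 ± 0.13), the exporter Abca1 (0.64 ± 0.16) and Cyp51 (0.54 ± 0.12). Sqle (-0.31) was not called. Abca1 lost its call without contralateral 6 h replicate 1 or 2, with adjusted p up to 0.0577 over its alternatives.

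The named decreases were taken from called genes with a mean of at least 50, no overlap between the sides and no predicted-gene name. The 10 largest of these were mostly genes of neuronal membranes. Over all called genes the largest decrease was -2.63. Grin2b, the NMDA receptor subunit that prevails in the young brain, was read at 14069, 17606, 13841 and 14757 contralaterally and at 3305, 4886, 2898 and 989.7 ipsilaterally. The sides were far apart in every animal, and the outlying library was lowest (log2 fold change -2.52 ± 0.34, limma adjusted p = 0.0012). Grin2a, its counterpart in the mature brain, was read at 2266, 3147, 2594 and 2639 against 709.8, 1151, 674 and 253 (-2.11 ± 0.33). Kcna1, a potassium channel of axons, was read at 1158, 940.2, 989.6 and 959.8 against 215, 307, 333 and 116 (-2.16 ± 0.28). The sodium-calcium exchangers Slc24a2 (-2.11 ± 0.34) and Slc8a1 (-2.05 ± 0.30), the serotonin receptor Htr4 (-2.48 ± 0.44), Thsd4 (-2.48 ± 0.31), the zinc finger gene St18 (-2.07 ± 0.36), the glycosyltransferase Galnt17 (-1.995 ± 0.34) and the lactase gene Lct (-1.99 ± 0.55) completed the set. In all 10 the outlying library held the lowest value. Lct was the least secure of them, at 8.33 in the outlying library against 60.4 to 91.2 in the other ipsilateral ones, and lost its call without contralateral 6 h replicate 1 or 2 (adjusted p up to 0.0725 over its alternatives).

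Ranked by moderated t, which weighs the change by its spread, other genes led the decreases. Cacna2d1, the calcium channel subunit to which gabapentin binds, was read at 4312, 4181, 3988 and 4126 contralaterally and at 2014, 1968, 1746 and 1532 ipsilaterally. The ipsilateral libraries, the outlying one included, stood close together (-1.20 ± 0.09, limma adjusted p = 6.15e-05). Ntrk3, the receptor of neurotrophin-3, was read at 5130, 5685, 4732 and 5052 against 1869.7, 2544, 1611 and 1405 (-1.50 ± 0.13), and Btbd3, which orients dendrites, at 3479, 3423, 3597 and 3532 against 1523, 1823, 1785 and 1487 (-1.09 ± 0.09). Dsp, desmoplakin, marks granule cells of the dentate gyrus and was read at 187, 241, 289 and 288 against 52.997, 76.2, 88.4 and 82.4 (-1.74 ± 0.15). Here the outlying library was not the lowest. Igip (-1.07 ± 0.09), the mannosidase Man1a2 (-0.89 ± 0.08), Mbd5 (-0.95 ± 0.09) and the phosphatase Ptprj (-1.08 ± 0.10) completed this set. On the side of the increases the same ranking gave Atf3, Zfp36, Nfkbiz and Socs3 (above) with Thbs1, a matrix glycoprotein (3.36 ± 0.14), Creb5 (3.05 ± 0.13), the small GTPase Gem (4.403 ± 0.19) and Gadd45g.

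Most genes of the synaptic lists fell, where 19.1% of all genes were called lower and 15.7% higher. Of 22 glutamate receptor subunits 15 fell and 1, Grin2c (0.60 ± 0.18), rose, with a median log2 fold change of -0.80. The AMPA receptor subunits Gria1 (-1.26 ± 0.29), Gria2 (-0.80 ± 0.15) and Gria3 (-0.85 ± 0.14) fell and Gria4 (-0.20) was not called. The kainate receptor Grik3 was read at 2058, 2268, 1994 and 2076 against 1072, 1292, 1153 and 734 (-1.01 ± 0.14, limma adjusted p = 0.00154). Of 24 postsynaptic scaffold and adhesion genes 23 fell and none rose (median -1.02), Dlg1 (0.26) being the one not called. Nlgn3, a neuroligin, was read at 1384, 1485, 1366 and 1472 contralaterally and at 752, 756, 614 and 504 ipsilaterally (-1.14 ± 0.11, limma adjusted p = 0.000323). Nlgn1 (-1.42 ± 0.15), Homer2 (-0.78 ± 0.10), Shank3 (-1.05 ± 0.13) and Camk2a (-1.90 ± 0.27), the kinase of synaptic plasticity, fell as well. Of 21 genes of synaptic vesicles and release 19 fell and none rose (median -0.76), led by Sv2b (-1.76 ± 0.23), Bsn (-1.82 ± 0.28), Unc13a (-1.11 ± 0.19) and Syt1 (-0.76 ± 0.14). Syt2 (-0.50) and Slc17a6 (-0.34) were not called.

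Inhibitory synapses and potassium channels followed the same course, again beside 19.1% of all genes called lower and 15.7% called higher. Of 18 genes for GABA synthesis, transport and receptors 12 fell and none rose (median -0.86). Gabra2 was read at 6697, 6554, 6167 and 5928 contralaterally and at 3323, 3937, 2929 and 2452 ipsilaterally (-1.02 ± 0.11, limma adjusted p = 0.000346), and Gabrb1 (-1.53 ± 0.16), Gabra4 (-0.85 ± 0.11) and the chloride exporter Slc12a5 (-0.98 ± 0.22) fell too. The genes that mark GABA neurons themselves moved less: Gad2 fell by 0.67 ± 0.17, and Gad1 (-0.31) and Slc32a1 (-0.32) were not called. Of 21 potassium channel genes 19 fell and none rose (median -1.12). Kcna2 (-1.12 ± 0.12), Kcnq5 (-1.56 ± 0.20), Kcna4 (-1.17 ± 0.15) and Kcna1 were the most significant, and Kcnk2 (-0.01) and Kcnj9 (-0.02) were not called. Without the outlying library the numbers of genes called lower in the 5 lists were 15, 23, 19, 13 and 19, and their medians -0.60, -0.73, -0.57, -0.69 and -0.96. The decreases were thus called in like number without it and were smaller in size.

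**Figure D2:**
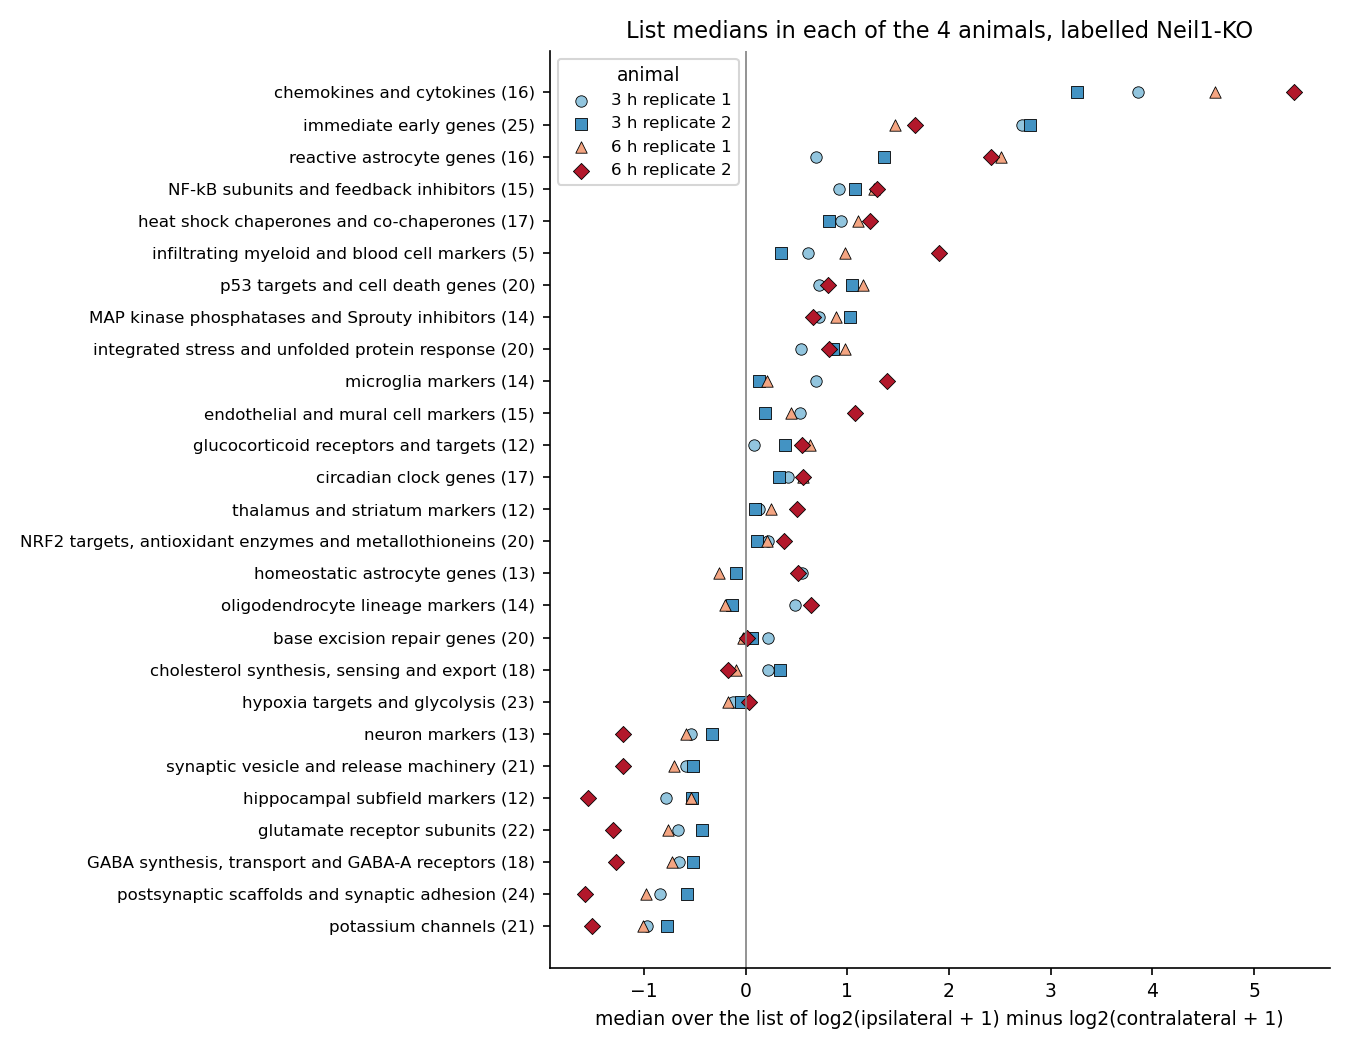
Median over each gene list (number of tested genes in brackets) of the log2 difference between the sides in each of the 4 labelled Neil1-KO animals (horizontal axis, pseudocount of 1); choroid plexus markers are not drawn. The synaptic, channel and neuronal lists are below 0 and the inflammatory, stress and reactive astrocyte lists above 0 in all 4 animals. For chemokines and cytokines this was fixed in advance, since 14 of 16 passed the filter on low values through the ipsilateral libraries alone. The animal 6 h replicate 2 is farthest from 0 in the synaptic, channel and neuronal lists.

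Markers of whole cell types moved beside these genes. Their counts are to be read against 19.1% of all genes called lower and 15.7% called higher. In bulk tissue, fewer cells of a type and less RNA per cell cannot be told apart. Of 13 neuron markers 10 fell and none rose (median -0.69), with medians of -0.54, -0.33, -0.59 and -1.21 in the 4 animals. Map2, of dendrites, was read at 30136, 28847, 26837 and 28050 contralaterally and at 13809, 18112, 15931 and 10800 ipsilaterally (-0.98 ± 0.15, limma adjusted p = 0.00184). Elavl4 (-0.72 ± 0.11) and Tubb3 (-0.75 ± 0.16) fell as well, and Thy1 (-0.35), Nefm (-0.44) and Nefh (-0.96) were not called. The share of the synaptic decrease that goes with these markers was not tested. Of 12 markers of hippocampal subfields 7 fell (median -0.79). They covered the dentate gyrus (Prox1 -0.81 ± 0.15, Dsp, C1ql2 -1.26 ± 0.24 and Calb1 -0.78 ± 0.15) and pyramidal cells (Fibcd1 -1.47 ± 0.40, Neurod6 -1.14 ± 0.22 and Cpne4 -1.35 ± 0.26), whereas Wfs1 (-0.35) of field CA1 and Grp (-0.41) were not called. Prox1 lost its call with all 24 libraries in the fit (adjusted p = 0.0712).

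Reactive astrocyte genes rose: 13 of 16 were called higher and none lower (median 1.81), beside 15.7% and 19.1% of all genes. Cd14, a receptor for bacterial lipid that microglia make too, was read at 28.9, 21.8, 16.9 and 29.3 contralaterally and at 393, 394, 843 and 751 ipsilaterally (4.51 ± 0.27, limma adjusted p = 1.82e-05). Vim, vimentin, was read at 2749, 1798, 2152 and 2288 against 5595, 5029.5, 11277 and 11184 (1.80 ± 0.22), and Emp1 at 299.8, 159, 146 and 159.8 against 914, 1413, 3648 and 2704 (3.36 ± 0.39). Both 6 h libraries exceeded both 3 h libraries on the ipsilateral side in all 3 genes. Gfap rose by 0.76 ± 0.13, and Serpina3n (0.26), Cp (0.63) and Sphk1 (0.54) were not called. Of 13 genes of resting astrocytes 2 rose and 1 fell, beside 15.7% and 19.1% of all genes, and the medians of the 4 animals differed in sign (0.55, -0.10, -0.27 and 0.52). Sox9 was read at 686, 702, 642 and 674 against 1798, 1811, 1666 and 2228 (1.46 ± 0.10, limma adjusted p = 6.15e-05), Gjb6 fell by 0.77 ± 0.19, and Slc1a2 (0.07), Gja1 (-0.07) and Glul (0.09) were not called. Aqp4 (0.54 ± 0.19, limma adjusted p = 0.0491) was called as reported and lost its call in 11 of 18 alternatives (adjusted p up to 0.144), and Gjb6 in 2 (up to 0.0562).

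Of 14 microglia markers 6 rose and none fell (median 0.65), beside 15.7% and 19.1% of all genes. Tyrobp was read at 82.0, 68.8, 73.4 and 91.5 contralaterally and at 202, 140.1, 147 and 373 ipsilaterally (1.33 ± 0.28), and C1qb at 476, 401, 411 and 419.5 against 785, 541, 737 and 1372 (0.93 ± 0.22). The outlying library was highest in both. Itgam (1.13 ± 0.32) lost its call in 4 of 18 alternatives. The homeostatic markers Tmem119 (-0.29), Cx3cr1 (-0.22) and P2ry12 (-0.59) were not called. The summed level of the 14 markers was 5296, 4903, 4984 and 4844 contralaterally and 7661, 4661, 5382 and 11817 ipsilaterally, so the sides overlapped. Without the outlying library 5 members were called higher and 2 lower. Of 15 listed markers of infiltrating myeloid and blood cells 5 were tested, and Lyz2 (1.12 ± 0.30) and the globin genes Hba-a1 (0.96 ± 0.25) and Hbb-bt (1.00 ± 0.34) rose. Their summed level was 6591, 5460, 7503 and 9796 contralaterally and 10301, 7272, 14340 and 37078 ipsilaterally, and none of the 3 kept its call in every fit without 1 library. The neutrophil genes S100a8 and S100a9 stayed at or below 18.52 in all 8 libraries and did not pass the filter. Camp was at 0 in 7 of 8 libraries.

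Endothelial and mural markers rose for 6 of 15 and fell for none (median 0.55). This count and those of the next lists stand beside 15.7% of all genes called higher and 19.1% called lower. Cdh5, the cadherin of endothelial junctions, was read at 616, 364, 398 and 472 contralaterally and at 1102, 1152, 1236 and 2231 ipsilaterally (1.59 ± 0.23, limma adjusted p = 0.00173). Pecam1 (1.43 ± 0.28), Flt1 (1.24 ± 0.25), Cldn5 (0.73 ± 0.12), Erg (0.97 ± 0.24) and Kdr (0.57 ± 0.12) rose, whereas Tek (0.20), Sox17 (-0.11) and the pericyte genes Pdgfrb (0.10) and Rgs5 (0.41) were not called. Oligodendrocyte lineage markers rose for 1 of 14 (Cldn11, 0.88 ± 0.25) and fell for none, and Cldn11 lost its call in 5 of 18 alternatives (adjusted p up to 0.0793). Neither direction was called for any of 9 tested choroid plexus markers, whose summed level was 34672, 1276.5, 1168 and 1162 contralaterally and 5880.1, 1128.5, 14953 and 26453 ipsilaterally. With a choroid plexus score as a covariate 5361 genes were called, 5175 of them among the 6033. Markers of thalamus and striatum, the neighbouring regions, rose for 1 of 12 (Adora2a, 0.95 ± 0.17) and fell for 1 (Ppp1r1b, -0.46 ± 0.13), the last losing its call in 3 of 18 alternatives (adjusted p up to 0.0821).

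Base excision repair, the pathway of the targeted gene, moved little. Of 20 genes 1 rose and 2 fell, or 15.0% called against 34.9% of all genes tested. Polb, the repair polymerase, was read at 501, 527, 485 and 468 contralaterally and at 675, 659, 586 and 647 ipsilaterally (0.37 ± 0.08, limma adjusted p = 0.00942). Parp1 (-0.61 ± 0.13), the sensor of strand breaks, and the glycosylase Tdg (-0.36 ± 0.08) fell. Ogg1 (0.18), Neil3 (0.43), Nthl1 (0.31), Apex1 (0.05) and Xrcc1 (-0.10) were not called. Fen1, Mutyh, Neil2, Nthl1 and Neil3 had means under 50 on both sides, which limits what can be seen in them.

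The genes that fell were long. The span of a gene from start to end, exons and introns together, was taken from GENCODE M21 on GRCm38 for 97.6% of the genes tested. Its median was 48.4 kb for genes called lower, 14.0 kb for those called higher, 17.0 kb for those not called and 20.3 kb for all. Among genes at least 2-fold lower the median was 109 kb, and 51.7% of them spanned over 100 kb, against 13.6% of all genes. Of 5510 genes up to 10 kb 8.02% were called lower and 20.4% higher. Of 527 genes over 300 kb 61.3% were called lower and 2.66% higher. The median log2 fold change went from 0.13 in the shortest class to -0.54 in the longest, and the longest class had medians of -0.51, -0.39, -0.51 and -0.78 in the 4 animals. Neuron markers fell in the same libraries, and their part in the relation to gene span was not tested.

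**Figure D3:**
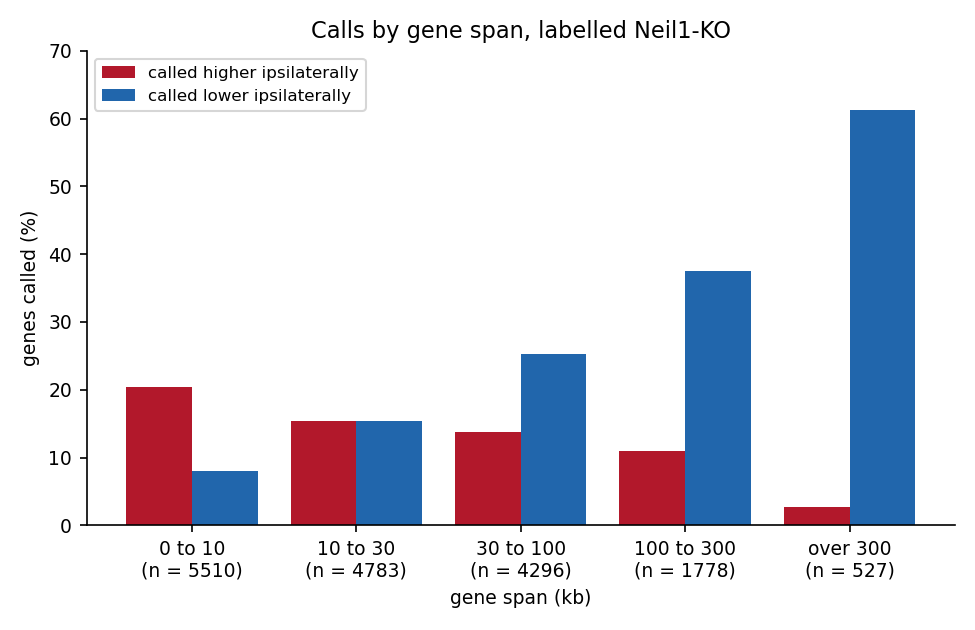
Share of genes called higher (red) and lower (blue) ipsilaterally in labelled Neil1-KO (vertical axis, percent) by gene span in kb (horizontal axis, with the number of genes per class). The share called lower goes from 8.02% to 61.3% and the share called higher from 20.4% to 2.66% from the shortest class to the longest.

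The response was present at both times, and most called genes had a larger fitted change at 6 h. At 3 h 908 genes (5.25%) were called, 556 higher (3.21%) and 352 lower (2.03%). At 6 h 4940 genes (28.5%) were called, 2130 higher (12.3%) and 2810 lower (16.2%). These counts do not rank the times, since both share 1 estimate of the spread: without the outlying library 3286 genes were called at 3 h and 3219 at 6 h. The count at 3 h also rose to 3284 without ipsilateral 6 h replicate 1 and fell to between 96 and 348 without any one of the other 6 libraries, the lowest being without contralateral 3 h replicate 2. The count at 6 h fell to 916 without contralateral 6 h replicate 1 and to 1214 without contralateral 6 h replicate 2. The times use separate animals. Of the 908 genes called at 3 h, 904 had the same sign at 6 h and 821 (90.4%) were called there in the same direction. Over the 6033 genes called for both times, the medians were 0.59 at 3 h and 0.82 at 6 h for increases and -0.47 and -0.71 for decreases. Of these genes 4854 changed by more at 6 h. The medians by animal were 0.59 and 0.60 at 3 h and 0.75 and 0.91 at 6 h for the increases, and -0.55, -0.40, -0.54 and -0.88 for the decreases. The median decrease at 6 h exceeded both medians at 3 h in 6 h replicate 2 alone.

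**Figure D4:**
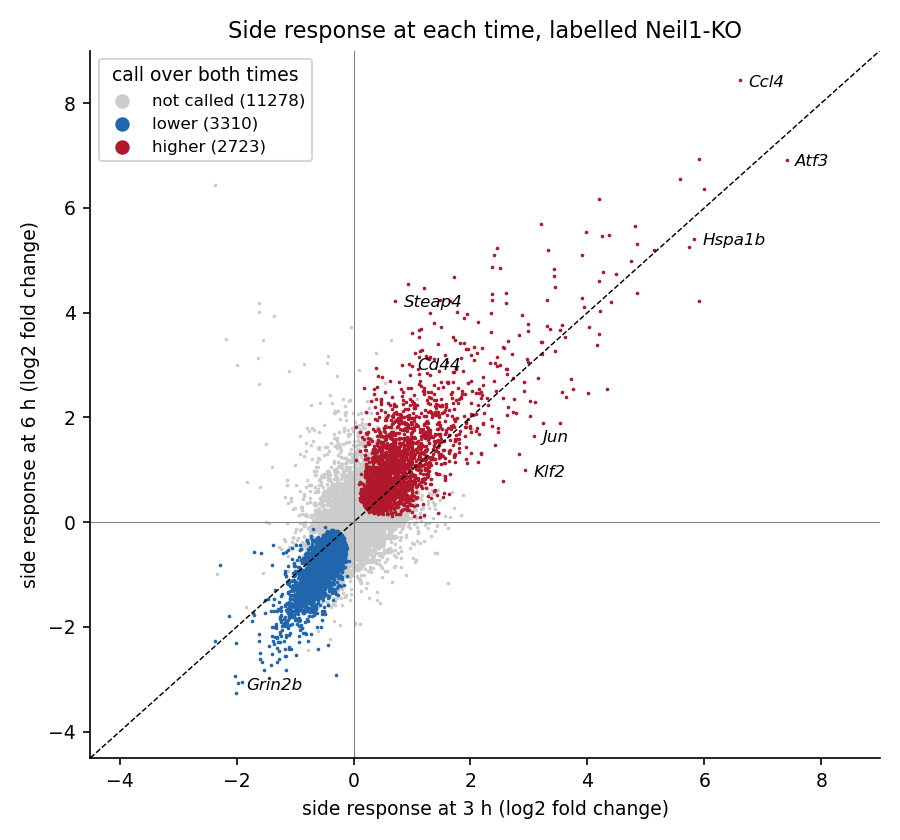
Log2 fold change between the sides at 3 h (horizontal axis) and at 6 h (vertical axis) for the 17311 genes tested in labelled Neil1-KO, coloured by the call over both times; the dashed line marks equal values. Atf3, Jun and Klf2 lie to the right of the line and Ccl4, Steap4 and Cd44 above it, and no gene passed the test of the difference.

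No gene passed the test of the difference between the times. With limma, 0 of 17311 genes were called for the response at 6 h minus that at 3 h (smallest adjusted p = 0.339, Fgf2), and 1321 (7.63%) had an unadjusted p under 0.05. The edgeR test also called 0, and the fit with animal as a block called 1. Without ipsilateral 6 h replicate 1, where the outlying library alone stands for its group and is taken to vary like the others, 1141 genes were called. Without contralateral 3 h replicate 2 there were 2 and without the outlying library 1. On simulated data the same design recovered 37% of 2-fold and 92% of 4-fold differences, so that differences near 2-fold could often be missed. Of its calls there 7.86% were false. The simulated libraries held no pairing by animal and no outlying library, so these rates may not hold for the real data. Reactive astrocyte genes lay above 0 in 16 of 16, with a median difference of 1.22 and 12 of them at an unadjusted p under 0.05. Without the outlying library they stood at 1.18, with 15 of 16 above 0. Among genes chosen after their values were seen, Emp1 responded by 2.37 at 3 h and 4.35 at 6 h, a difference of 1.98 (95% interval 0.96 to 3.00), and Cd44, a hyaluronan receptor, by 0.95 and 3.02, a difference of 2.07 (95% interval 1.30 to 2.83). Steap4, a metalloreductase, went from 0.71 to 4.22, a difference of 3.50 (95% interval 1.80 to 5.21).

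Immediate early genes went the other way, with 18 of 25 below 0, a median difference of -0.50 and 9 of them at an unadjusted p under 0.05, all below 0. Without the outlying library the median was -0.39 and the number again 9. Klf2 responded by 2.93 at 3 h and 0.99 at 6 h, a difference of -1.95 (95% interval -2.89 to -1.01). Jun responded by 3.09 and 1.64, a difference of -1.45 (95% interval -2.39 to -0.51). Fos was no part of this, at 4.84 and 5.32. The 5 lists of synaptic and channel genes had medians of -0.36 to -0.55 for this difference, and of -0.07 to -0.26 without the outlying library. Choroid plexus markers had the largest median difference of the lists, 3.76 with and 3.46 without that library.

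No gene was called for a difference in side response between labelled Neil1-KO and the other genotypes. Against WT, limma called 0 of 17964 genes (smallest adjusted p = 0.301, Ccdc177), with 2620 (14.6%) at an unadjusted p under 0.05, and edgeR called 0. Against Neil2-KO it called 0 (smallest adjusted p = 0.46, Kcnmb2), with 1831 (10.2%) at an unadjusted p under 0.05, and edgeR called 0. Where the outlying library alone stood for ipsilateral 6 h, that is without ipsilateral 6 h replicate 1, 2137 genes were called against WT and 816 against Neil2-KO. Without WT ipsilateral 6 h replicate 1 there were 185 against WT, and without labelled Neil1-KO ipsilateral 3 h replicate 2 there was 1 against Neil2-KO. Both comparisons use the same labelled Neil1-KO libraries. On simulated data, without pairing by animal or an outlying library, the comparison with WT recovered 82% of 2-fold differences. The intervals of single genes were wide. Atf3 responded by 7.16 among these libraries and by 5.77 in WT, a difference of 1.39 (95% interval -0.27 to 3.04). Ccl4 responded by 7.52 and 7.57, a difference of -0.05 (95% interval -1.59 to 1.49). Among named genes picked because their interval did not include 0, the difference for Hspa1b was 0.82 (0.03 to 1.61), for Fos 1.51 (0.33 to 2.68), for Gem 1.20 (0.31 to 2.10) and for Grin2b -0.73 (-1.39 to -0.06), with no adjustment over genes.

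Synaptic vesicle genes stood at a median of -0.76 in labelled Neil1-KO and -0.25 in WT. All 21 differences were below 0 and 18 had an unadjusted p under 0.05, beside 14.6% of all genes. Without the outlying library all 21 were again below 0, the median difference went from -0.51 to -0.34, and 9 had an unadjusted p under 0.05, where 7.84% of all genes did. Against Neil2-KO their median difference was -0.31, with 6 of 21 at an unadjusted p under 0.05, beside 10.2% of all genes. It was -0.15 without that library. For neuron markers the median difference from WT was -0.35 with and -0.20 without that library, with 13 of 13 below 0 in both. Against Neil2-KO the same 13 had a median of -0.21 with it and of -0.08, with 8 of 13 below 0, without it. Reactive astrocyte genes stood 0.59 above WT with the outlying library and 0.58 without it. Chemokines and cytokines (0.28 and 0.44) and immediate early genes (0.21 and 0.15) had smaller median differences. Base excision repair genes had a median difference of -0.00493 and 0 of 20 at an unadjusted p under 0.05. Choroid plexus markers differed most, by a median of 3.01, and their part in the other differences was not tested.

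**Figure D5:**
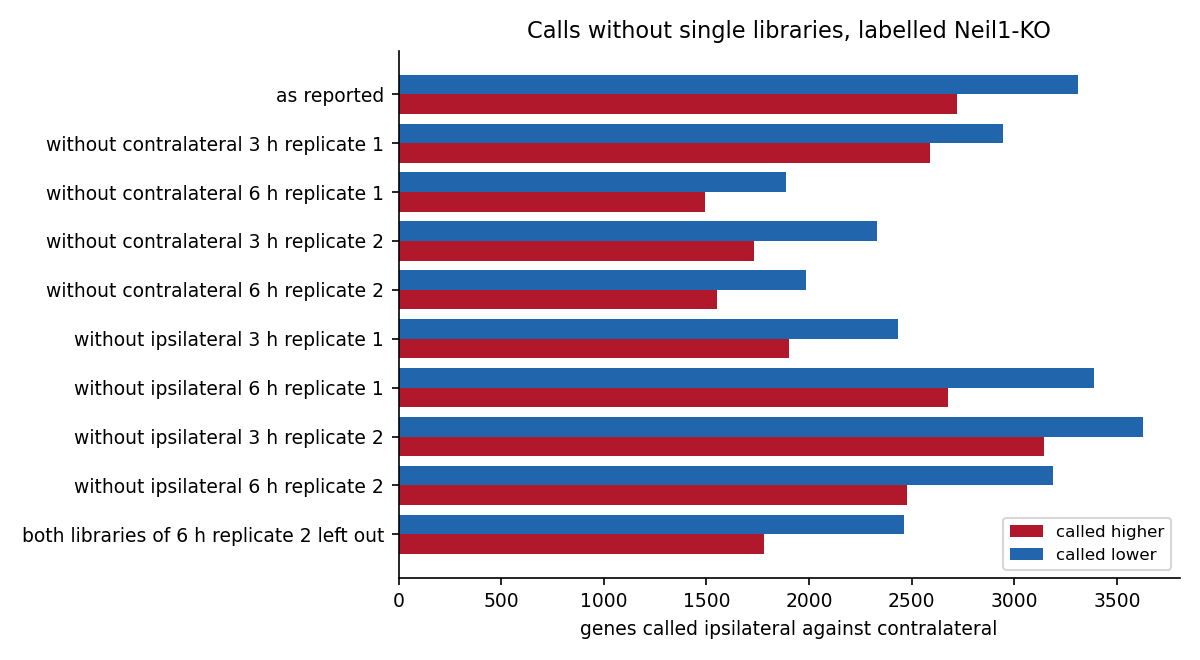
Number of genes called higher (red) and lower (blue) ipsilaterally in labelled Neil1-KO (horizontal axis) as reported, without each library in turn, and without both libraries of 6 h replicate 2. Totals range from 3378 without contralateral 6 h replicate 1 to 6770 without ipsilateral 3 h replicate 2, and more genes are lower than higher in each fit.

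The number of calls moved with single libraries although the directions did not. Leaving out 1 library in turn gave 3378 to 6770 called genes. The calls fell most without contralateral 6 h replicate 1 (3378) or contralateral 6 h replicate 2 (3536), which are libraries of the more uniform side. The number of genes called higher fell to 1491, 1553 and 1733 without contralateral 6 h replicate 1, 6 h replicate 2 and 3 h replicate 2. In all 8 fits 3174 genes (52.6% of 6033) were called, 1354 higher and 1820 lower, among them 715 of the 861 at least 2-fold higher and 418 of the 496 at least 2-fold lower. No gene called as reported had the opposite sign in any of these fits. By list, 19 immediate early genes, 14 heat shock genes, 13 NF-kB genes and 10 reactive astrocyte genes were called higher in all of them, and 21 scaffold genes, 17 potassium channels, 13 vesicle genes, 12 glutamate receptors and 10 GABA genes were called lower.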

How the data were processed

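Total RNA of the hippocampus was sequenced in 24 libraries, and 8 titled NEIL1-KO are described here. The authors deposited 1 table of gene-level signal, normalized counts in which each library's reads were divided by a size factor. Upstream, the submitters' processing notes name DESeq2, featureCounts, HISAT2, SAMtools and Trim Galore, without versions, and the build GRCm39. All values came out as whole reads of their library to a tolerance of 1e-06, so the reads were recovered for count tests. Lines without a gene name (10770 of 33084, 32.55%) were left out of tests, and 24 symbols on several lines were kept apart.

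Values were tested on the log2(value + 1) scale with limma 3.58.1 (trend option, R 4.3.3), two-sided, with Benjamini-Hochberg adjustment over all genes tested and calls under 0.05. Genes needed a value of 10 or more in at least 4 of the 8 libraries (17311 genes), or in 4 of 24 for genotypes (17964). The pooled fit had time as a block, and the other fits had the mean of each group. A fold change on this scale understates the change of low genes. Both sides came from the same replicates per the series' design text, so that the number was taken as the animal in a blocked alternative. Labelled Neil1-KO libraries with the same time and number deviated together (r = 0.331 at 3 h and 0.198 at 6 h). Over the genes tested in 24 libraries, r was 0.00642 and 0.000927 in WT and 0.0636 and 0.0332 in Neil2-KO. The block was applied to these genotypes as well. The p-values of the fits as reported rest on the spread between these few libraries, moderated across genes. Those fits have no term for the animal, so both libraries of an animal are taken as independent. Counting intervals would cover counting error only. Alternatives were a pseudocount of 5, no filter, edgeR 4.0.16 and DESeq2 1.42.0 on recovered reads, TMM scaling, array weights, a choroid plexus covariate, all 24 libraries, the animal block and each library left out. On simulated data the pooled fit recovered 93% of 2-fold and 100% of 4-fold changes, and 2.03% of its calls were false. The simulated libraries were independent draws with 200 changed genes and the same spread on both sides. They held no pairing by animal and no outlying library, so the rates from simulated data may not hold for the real data.

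The members and gene lists were chosen with earlier results of these data known. Named genes were the 10 highest and lowest log2 fold changes and the 8 highest and lowest moderated t among called genes with a mean of at least 50, no overlap between the sides and no name of a predicted gene, then up to 4 members of each list with the smallest p and members with a textbook role. Further list members were named after their values were seen. Gene spans and promoters came from GRCm38, another build than the files', and no coordinates were converted. Ly6g, Elane, Hbb-bs and Cd3e were not analysed here. Some members of the lists are not reported here by name.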

Additional observations from a re-analysis of the deposited data

Results flagged for a closer look

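In 14 of 234 groups of 4 values, over 117 named genes, 1 library lay apart from the other 3 by Dixon's criterion; chance gives about 1 in 20 groups. Contralateral 3 h replicate 1 was highest for Zfp36 (86.81, the others 64.6 to 67.7), Thbs1 (397.9), Gadd45g (446.9), P4ha1 (774.9), Errfi1 (885), Emp1 (299.8, the others 146 to 159.8) and Cldn11 (173.6). Contralateral 3 h replicate 2 was highest for Igip (1674) and Ptprj (2378) and lowest for Idi1 (1973). Contralateral 6 h replicate 2 was highest for Gjb6 (580.5). Ipsilateral 3 h replicate 1 was lowest for Fkbp5 (616, the others 804.6 to 826). Ipsilateral 6 h replicate 2, the library that stood apart as a whole, was lowest for Homer2 (997.1) and highest for Cdh5 (2231, the others 1102.5 to 1236).

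Lines without a gene name, which entered no test, took 10.94% ± 1.22 (SD, n = 4) of the reads ipsilaterally and 8.674% ± 0.304 (SD, n = 4) contralaterally. The sides did not overlap (exact permutation test, two-sided, p = 0.0286, the smallest that 4 against 4 can give). This test took the libraries as independent, although both sides came from the same animals, and a test that keeps the pairs was not run.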

How the results depend on the processing

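For the pooled response, the count of 6033 was 5361 to 8135 under other pseudocounts, filters, tests, scalings, weights or covariates, or with all 24 libraries. On recovered reads edgeR called 6143 and DESeq2 6729. No gene called as reported changed sign in any alternative, and the signs of genes not called were not followed. Without both libraries of 6 h replicate 2 4243 genes were called, 1780 of them higher. With 1 library left out in turn, the called genes numbered 3378 to 6770 (1491 to 3145 higher, 1887 to 3625 lower). At 3 h they numbered 96 to 3286 (93 to 1246 higher, 3 to 2042 lower) and at 6 h 916 to 7349 (608 to 3134 higher, 308 to 4215 lower). For 6 h minus 3 h they numbered 0 to 1141 (0 to 183 above 0, 0 to 958 below), against WT 0 to 2137 (0 to 401 above 0, 0 to 1736 below) and against Neil2-KO 0 to 816 (0 to 157 above 0, 0 to 659 below). At 3 h, edgeR called 570 genes lower and 601 higher, or 51.3% higher against 61.2% as reported, and the fit over all 24 libraries called 3154 genes (1323 higher, 1831 lower). The replicate block, with animal in place of time, gave 5932 calls for the pooled response, 1163 at 3 h and 5446 at 6 h, and 1 gene (1 above 0) for 6 h minus 3 h; it changed no other call count by over 1.5 times. The cause of these shifts was not tested. With 2 animals a group, low genes such as Fen1 and Mutyh allow no statement.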
